A study of Mus musculus with 3 samples.

Results

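The 9 genes described here encode subunits of NMDA receptors (Grin1, Grin2a, Grin2b, Grin2c and Grin3a) and metabotropic glutamate receptors (Grm3, Grm5, Grm7 and Grm8). They were taken by gene symbol from the 30559 genes of the count tables, and they are 9 of the 15 Grin and Grm genes there. Each of the 9 genes had UMIs in all 3 libraries. The data are single-nucleus RNA-seq of neurosphere cultures, which are free-floating clones of neural stem cells, here from the subventricular zone of newborn mouse pups and differentiated on an adherent surface until day 15 in vitro.

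Each condition was 1 library from a pool of about 15 cultures. The control library came from cultures labelled with the genotype control, which received a lentivirus encoding red fluorescent protein according to the methods. Which floxed line gave the control cultures is not given in the sources used here. The CBP-ablated library came from CBPf/f cultures, with both copies of Crebbp floxed, and the p300-ablated library from p300f/f cultures, with both copies of Ep300 floxed. Both of these received a lentivirus encoding a Cre recombinase fused to mCherry, a type of virus that enters dividing and resting cells and is not restricted to 1 cell type. The labels also name tamoxifen as the treatment of all 3 samples, and its part in the design is not explained there. Nuclei were sorted before loading.

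Nuclei numbered 4884 in the control library, 3017 in that of CBP ablation and 4648 in that of p300 ablation, with 16312170, 12748336 and 18876682 UMIs and medians of 3219, 4016 and 3902.5 UMIs per nucleus. Levels are given as CPM, the UMIs of a gene per 1000000 UMIs of the same nuclei, and each is followed by an exact 95% Poisson interval. These intervals, like those of ratios and shares, cover counting error only: with 1 library per condition no test between conditions was possible, and the spread between cultures is unknown. The floxed genes do not check the labels, because the tables hold 1 count for the whole gene and the deleted exons cannot be read from it: Crebbp stood at 335, 370 and 365 CPM and Ep300 at 114, 136 and 115 CPM in the control, CBP-ablated and p300-ablated libraries. At most 7 barcodes were shared by any pair of libraries.

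Clusters of the merged nuclei were named from marker genes, with every Grin and Grm gene kept out of the clustering. The 10 named classes were NPC/OPC-like nuclei (neural and oligodendrocyte precursor cells, with Pdgfra and Cspg4), RGC/PSC-like nuclei (radial glia or precursor-like cells), glial progenitor-like nuclei with Gfap and Aqp4, astrocyte-like nuclei, committed oligodendrocyte precursor-like nuclei, oligodendrocyte-like nuclei, immature neuron-like, proliferating-like, neuron-like and microglia-like nuclei. The make-up of the libraries differed. The astrocyte-like class held 1278 control nuclei, 26.2% of the library, and 0 nuclei of either ablated library, while oligodendrocyte-like nuclei were 3.30%, 16.1% and 4.15% and committed precursor-like nuclei 8.05%, 20.4% and 5.08% of the control, CBP-ablated and p300-ablated libraries. NPC/OPC-like nuclei were 21.6%, 12.9% and 38.4% in the same order. Their mix differed too. At a finer resolution, clusters named NPC/OPC and led by Tafa1 and by Gm2164 held 457 and 306 control nuclei. They held 83 and 56 CBP-ablated and 841 and 735 p300-ablated nuclei. One led by Gpr149, which also took in immature neuron-like nuclei, held 457, 527 and 248. Ratios in NPC/OPC-like nuclei did not hold this mix fixed, and its part in them was not tested. With summed libraries, fewer cells of a type and less RNA per cell cannot be told apart, so each receptor is followed below from the whole library into its classes.

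Glutamate is the main excitatory transmitter of the brain. NMDA receptors are channels built of several subunits that open when glutamate and a co-agonist, glycine or D-serine, bind and the membrane is depolarized, and they pass calcium. Every such channel contains GluN1, the product of Grin1, which is joined by GluN2 subunits (Grin2a to Grin2d) that bind glutamate or by GluN3 subunits (Grin3a and Grin3b) that bind glycine and lower the calcium flow. Metabotropic receptors act through G proteins. Group I, with Grm5, activates phospholipase C, while group II (Grm2 and Grm3) and group III (Grm4, Grm6, Grm7 and Grm8) inhibit adenylyl cyclase. Astrocytes are known for Grm3 and, early in life, Grm5, neurons for Grin1, Grin2a and Grin2b, and oligodendrocyte precursors respond to glutamate from axons.

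Most of the 9 loci are long. In the GENCODE annotation of build GRCm38, Grin1 lies on chromosome 2 (25291181 to 25319187, minus strand), Grin2a on chromosome 16 (9567898 to 9995560, minus strand), Grin2b on chromosome 6 (135713233 to 136173511, minus strand), Grin2c on chromosome 11 (115249169 to 115267243, minus strand) and Grin3a on chromosome 4 (49661611 to 49845744, minus strand). The metabotropic genes lie on chromosome 5 (Grm3, 9485541 to 9725170, minus strand), chromosome 7 (Grm5, 87584168 to 88134907, plus strand) and, at separate places, chromosome 6 (Grm7, 110645581 to 111567230, plus strand, and Grm8, 27275119 to 28135178, minus strand). Spans ran from 18.1 kb for Grin2c and 28.0 kb for Grin1 to 922 kb for Grm7. As introns were counted, a long gene can collect more reads, so genes are compared with each other per kb only. In the control library Grm5 stood at 2.09 CPM per kb of gene span and Grin3a at 1.89, ahead of Grin1 at 0.558, Grm3 at 0.398, Grm7 at 0.310, Grin2c at 0.265, Grin2b at 0.250, Grm8 at 0.0908 and Grin2a at 0.0252. Per kb of exon the order changed, with Grm5 at 112, Grm7 at 48.6, Grm3 at 31.3 and Grin3a at 28.4. An annotated antisense gene, Grin1os, overlaps Grin1, and Ppp3r2 lies inside Grin3a on the same strand. How reads in these stretches were counted was not examined.

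Promoter sequences were found for 5 of the 9 genes in the RefSeq table of build GRCm38.p6. CBP is named for its binding to CREB, a factor that recognizes the cAMP response element, so the 250 bases before each start were searched on both strands for this element (TGACGTCA) and for its core (TGACG, which also lies within the full element). The full element was in none of the 8 promoters of these genes and in 1.55% of all 32851 promoters. The core was in 2 of the 8, belonging to Grin1 and Grm8, and in 17.8% of all promoters. Printed 5′ to 3′ on the strand of the gene are the promoters of Grm7 (chr6:110645262-110645511, plus strand) and Grm3 (chr5:9725353-9725602, minus strand), whose levels differed most and in opposite directions in the CBP-ablated library, and of Grin1 (chr2:25319188-25319437, minus strand), which held the core at 2 places, in capitals, starting 31 and 5 bases before the start site. Matches are letters in a window and say nothing about binding.
Grm7: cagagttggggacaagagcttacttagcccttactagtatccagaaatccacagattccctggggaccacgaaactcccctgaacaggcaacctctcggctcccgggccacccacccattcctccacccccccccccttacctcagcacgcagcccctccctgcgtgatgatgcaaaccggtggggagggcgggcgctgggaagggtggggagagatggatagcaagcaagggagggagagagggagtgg
Grm3: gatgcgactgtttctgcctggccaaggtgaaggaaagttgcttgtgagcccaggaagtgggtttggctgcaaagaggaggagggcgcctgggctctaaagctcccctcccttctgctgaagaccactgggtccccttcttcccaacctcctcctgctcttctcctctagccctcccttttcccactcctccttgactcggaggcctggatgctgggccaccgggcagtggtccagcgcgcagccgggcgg
Grin1: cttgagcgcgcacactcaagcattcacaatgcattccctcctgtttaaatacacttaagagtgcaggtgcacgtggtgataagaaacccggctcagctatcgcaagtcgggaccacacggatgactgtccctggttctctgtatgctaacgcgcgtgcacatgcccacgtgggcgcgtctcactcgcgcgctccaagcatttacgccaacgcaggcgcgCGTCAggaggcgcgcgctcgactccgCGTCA

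Grm7 and Grin2a were higher, and Grm3 and Grm5 lower, in the CBP-ablated library as a whole, and Grm3 was lower in the p300-ablated library. A gene was counted as 2-fold apart when its log2 ratio of CPM was past 1 and it had at least 100 UMIs in the 2 libraries together. Of the 9 genes, 2 were 2-fold higher in the CBP-ablated than in the control library, where 2.89% of all 11883 genes passing the count minimum were, and 2 were 2-fold lower, where 3.99% were (6.88% in either direction). Between the p300-ablated and control libraries 0 of 9 were higher and 1 was lower, against 0.694% and 2.12% of 12247 genes (2.82% together). The CBP-ablated and p300-ablated libraries, compared with each other, had 2 of 8 higher (Grin2a and Grm7) and 1 of 8 lower (Grm5), against 3% and 2.57% of 11956 genes (5.57% together). Grin2c had too few UMIs for the last comparison.

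**Figure D1:**
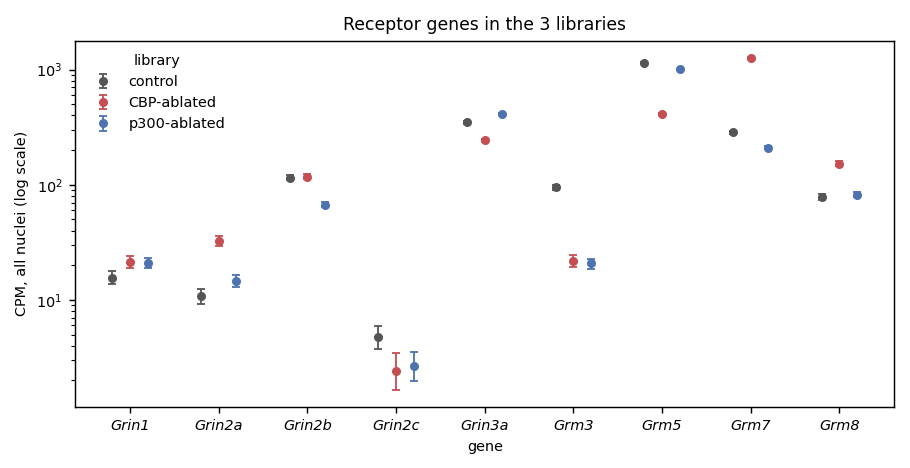
Level of each receptor gene in CPM (vertical, log scale) in all nuclei of the control (grey), CBP-ablated (red) and p300-ablated (blue) libraries, with exact 95% Poisson intervals. Grm7 stood highest in the CBP-ablated library at 1259 CPM, and Grm3 fell from 95.3 CPM in the control to 21.7 and 20.7 CPM in the ablated libraries.

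Grin1, the subunit needed by every NMDA receptor, had its highest level in neuron-like nuclei. In neuron-like nuclei it stood at 152 CPM (112 to 203) in the control, 204 CPM (169 to 244) with CBP ablated and 259 CPM (207 to 321) with p300 ablated. The next class, NPC/OPC-like nuclei, lay at 32.7, 21.1 and 31.5 CPM, outside the neuronal range. By number of UMIs the order was different, since NPC/OPC-like nuclei held 45.1%, 10.6% and 55.6% of the Grin1 UMIs of the 3 libraries, and neuron-like nuclei 18.4%, 44.3% and 21.6%. It was followed by immature neuron-like, committed precursor-like and proliferating-like nuclei, whose ranges over libraries overlapped. Astrocyte-like nuclei had only 3 Grin1 UMIs, or 0.765 CPM, and RGC/PSC-like nuclei had 0, 3 and 4. Over whole libraries Grin1 stood at 15.6, 21.4 and 20.9 CPM, a log2 ratio to control of 0.45 (0.20 to 0.71) for CBP-ablated and 0.42 (0.19 to 0.65) for p300-ablated nuclei. Outside the astrocyte-like class these ratios were 0.07 and 0.04. Within neuron-like nuclei the ratio was 0.42 (-0.08 to 0.94) for the CBP-ablated library, an interval that includes 0, and 0.77 (0.24 to 1.31) for the p300-ablated library.

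Grin2b, which encodes the GluN2B subunit typical of developing neurons, had its highest level in neuron-like nuclei, which held 25.8% of its UMIs in the control, 69.1% with CBP ablated and 48.8% with p300 ablated. In the control more of them, 32.4%, came from the astrocyte-like class. Neuron-like nuclei held 1570 CPM (1433 to 1716) in the control, 1753 CPM (1648 to 1863) with CBP ablated and 1892 CPM (1746 to 2047) with p300 ablated. With each nucleus thinned to 1500 UMIs, 84.6%, 87.4% and 89.2% of neuron-like nuclei had a Grin2b UMI, compared with 95.0%, 95.9% and 97.7% without thinning. In microglia-like nuclei, set beside them as a reference for free RNA, the thinned shares were 3.12%, 9.09% and 3.33%. They came from only 64, 22 and 30 nuclei that reached this depth. Median UMIs before thinning were 2061, 2006 and 3774 there, and 2998, 3372 and 3752 in neuron-like nuclei. Whether microglia express any of these receptors themselves was not examined. Astrocyte-like nuclei of the control stood at 155 CPM, far below neurons and above each remaining named class.

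Below the neurons, Grin2b differed between the libraries. In NPC/OPC-like nuclei it fell from 49.0 CPM in the control to 30.5 CPM in the CBP-ablated and 15.8 CPM in the p300-ablated library. The log2 ratio was -0.68 (-1.20 to -0.19) for CBP-ablated nuclei and -1.63 (-1.99 to -1.28) for p300-ablated nuclei. In RGC/PSC-like nuclei the levels were 131, 113 and 46.4 CPM, with ratios of -0.22 (-0.52 to 0.08) and -1.50 (-1.81 to -1.19). Grin2b was thus the gene of the 9 that was 2-fold lower in p300-ablated NPC/OPC-like nuclei (1 of 7 genes with enough UMIs, where 0.303% of 7930 genes were lower, 0.265% higher and 0.567% either) and in RGC/PSC-like nuclei (1 of 5, where 0.261% of 6127 genes were). These ratios stayed past 2-fold in all 13 alternative settings, at -2.04 to -1.09 and at -1.59 to -1.03. After thinning, 7.16% of control and 2.44% of p300-ablated NPC/OPC-like nuclei had a Grin2b UMI (11.2% and 4.76% without thinning). In microglia-like nuclei of the p300-ablated library the thinned share was 3.33% (1 of 30), and their level was 7.10 CPM on 1 UMI, or 10.5% of the level of the library, against 23.5% for the 110 UMIs of NPC/OPC-like nuclei. Control microglia-like nuclei stood at 17.5 CPM on 5 UMIs. Those of the CBP-ablated library stood at 57.9 CPM on 6 UMIs, above the 30.5 CPM of its NPC/OPC-like nuclei. How much of the low Grin2b levels was free RNA was not tested. In the clusters of a finer resolution that make up the RGC/PSC-like class, the p300-ablated ratio was -1.91 (-2.36 to -1.47) in the one led by Vgll3, Cemip and Pde1a and -1.03 (-1.48 to -0.59) in the one led by Ccn2, Etnppl and Lmx1a. In neuron-like nuclei the p300-ablated ratio was 0.27 (0.10 to 0.44), of the opposite sign.

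Grin2a, the GluN2 gene of mature synapses, had its highest levels in oligodendrocyte-like and neuron-like nuclei. Of its UMIs, neuron-like nuclei held 14.8%, 19.3% and 36.1% and oligodendrocyte-like nuclei 50%, 71.3% and 44.4% in the control, CBP-ablated and p300-ablated libraries. The rest was spread over other classes. Oligodendrocyte-like nuclei held 104, 100 and 104 CPM in the control, CBP-ablated and p300-ablated libraries, with intervals of 83.1 to 128, 89.3 to 113 and 86.1 to 124 CPM. Those levels overlap completely, at log2 ratios to control of -0.04 (-0.39 to 0.32) and 0.00 (-0.41 to 0.41). Over whole libraries, in contrast, Grin2a stood at 10.8, 32.6 and 14.7 CPM, with a ratio of 1.59 (1.34 to 1.86) for the CBP-ablated library, in which oligodendrocyte-like nuclei held 71.3% of the Grin2a UMIs and 23.1% of all UMIs. In the control they held 50% of the Grin2a UMIs and 5.21% of all UMIs. Giving the same weight to each named class with at least 50 nuclei in all 3 libraries brought the ratio to 0.25. This weighting, used again below, leaves out the astrocyte-like class and the unnamed nuclei.

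In neuron-like nuclei Grin2a was spread unevenly over libraries and nuclei. It stood at 84.3 CPM (55.1 to 124) in the control, 135 CPM (107 to 168) with CBP ablated and 305 CPM (248 to 371) with p300 ablated, the last at a log2 ratio of 1.86 (1.22 to 2.54). It was the one of 6 genes with enough UMIs to be 2-fold higher in p300-ablated neuron-like nuclei, where 1% of 1100 genes were. The 100 UMIs behind this value came from 19 nuclei, with 31 in a single nucleus and 88.0% in the top 10. A similar concentration held in oligodendrocyte-like nuclei, where the 123 UMIs of the p300-ablated library came from 17 nuclei and 91.1% from the top 10, against 76 nuclei for the 296 UMIs of the CBP-ablated library. The counting intervals treat UMIs as independent and do not cover this spread between nuclei.

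Grin2c, the GluN2 gene known from cerebellum and glia, was rare. It had 78, 31 and 50 UMIs in the control, CBP-ablated and p300-ablated libraries, or 4.78, 2.43 and 2.65 CPM, with log2 ratios of -0.98 (-1.63 to -0.36) and -0.85 (-1.39 to -0.32). Between 61.5% and 68.0% of these UMIs came from glial progenitor-like nuclei, which held 8.33% to 10.9% of all UMIs. Levels in this class were 35.3 CPM (26.1 to 46.9), 15.1 CPM (9.37 to 23.1) and 17.2 CPM (11.9 to 24.0), so the control lay above both ablated libraries beyond counting error, on 48, 21 and 34 UMIs. No class passed the count minimum for a ratio of Grin2c. Committed oligodendrocyte precursor-like and microglia-like nuclei had 0 Grin2c UMIs in each library.

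Grin3a, whose GluN3A subunit is most abundant in early postnatal life, had its highest levels in immature neuron-like, NPC/OPC-like and proliferating-like nuclei. In immature neuron-like nuclei it stood at 847, 702 and 767 CPM in the control, CBP-ablated and p300-ablated libraries. NPC/OPC-like nuclei held 749, 851 and 666 CPM, and proliferating-like nuclei 699, 734 and 585 CPM. These 3 ranges overlap and lie above the next named class, committed oligodendrocyte precursor-like nuclei, at 230, 142 and 190 CPM, and neurons at 120, 84.4 and 85.4 CPM. Other precursor classes were low as well. Glial progenitor-like nuclei stood at 94.3, 63.4 and 66.7 CPM and RGC/PSC-like nuclei at 54.6, 70.3 and 67.0 CPM. After thinning, 62.7%, 63.0% and 58.3% of NPC/OPC-like nuclei had a Grin3a UMI, and 3.12%, 4.55% and 16.7% of microglia-like nuclei (82.0%, 86.1% and 80.0%, and 3.28%, 6.67% and 13.2%, without thinning).

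No class showed a 2-fold difference of Grin3a between libraries. Within the 7 classes that passed the count minimum, CBP-ablated ratios to control ran from -0.70 in committed precursor-like nuclei to 0.36 in RGC/PSC-like nuclei. The 6 p300-ablated ratios ran from -0.50 to 0.29. Whole libraries stood at 349, 243 and 411 CPM, log2 ratios of -0.52 (-0.59 to -0.46) and 0.24 (0.19 to 0.29). The share of NPC/OPC-like nuclei was likewise lower with CBP ablated and higher with p300 ablated. Immature neuron-like nuclei were 8.46%, 9.65% and 10.9% of the control, CBP-ablated and p300-ablated libraries. Proliferating-like nuclei were 2.31%, 3.81% and 3.66%, so neither of these shares was lower with CBP ablated. The part of the class mix in the whole-library ratios was not tested. With equal class weights the ratios were -0.07 and -0.13.

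Among the metabotropic receptors, Grm5 of group I had the highest level of the 9 genes per kb of gene span in the control library, at 2.09 CPM per kb. It stood at 0.746 with CBP ablated, under Grm7 at 1.37, Grin3a at 1.32 and Grin1 at 0.765, and at 1.82 with p300 ablated, under Grin3a at 2.23. Its difference between the CBP-ablated and control libraries varied by class. Control levels were 2087 CPM (2012 to 2164) in immature neuron-like, 1735 CPM (1619 to 1857) in proliferating-like, 1710 CPM (1669 to 1751) in astrocyte-like, 1614 CPM (1572 to 1656) in NPC/OPC-like and 1365 CPM (1238 to 1502) in neuron-like nuclei. Glial progenitor-like nuclei lay apart at 312 CPM, and committed precursor-like, RGC/PSC-like and oligodendrocyte-like nuclei at 180 to 262 CPM. After thinning, 74.8% of control NPC/OPC-like and 65.7% of astrocyte-like nuclei had a Grm5 UMI (88.5% and 76.0% without thinning), against 14.1% of microglia-like nuclei.

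Whole-library Grm5 was 1149 CPM in the control, 411 CPM with CBP ablated and 1004 CPM with p300 ablated. The CBP-ablated ratio was -1.48 (-1.53 to -1.44), and it was -1.24 outside the astrocyte-like class and -0.70 with equal class weights. Of the control's Grm5 UMIs 35.8% came from astrocyte-like nuclei. The p300-ablated library, which has no astrocyte-like nuclei either, had a ratio of -0.19 (-0.22 to -0.16), which was 0.05 outside the astrocyte-like class of the control. NPC/OPC-like nuclei held 53.5% of its Grm5 UMIs.

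Within classes, the CBP-ablated library had less Grm5 in immature neuron-like nuclei, at 593 CPM (545 to 643) against 2087 in the control and 2200 in the p300-ablated library. The ratio was -1.82 (-1.95 to -1.69), while that of the p300-ablated library was 0.08 (0.01 to 0.14). In proliferating-like nuclei the CBP-ablated ratio was -1.05 (-1.23 to -0.88), 1 of 2 genes with enough UMIs (1.48% of 1821 genes were lower), in committed precursor-like nuclei -0.85 (-1.05 to -0.65) and in NPC/OPC-like nuclei -0.40 (-0.48 to -0.32). Committed precursor-like nuclei stood at 262 CPM in the control and 145 CPM with CBP ablated. Microglia-like nuclei of these libraries stood at 144 and 174 CPM, on 41 and 18 UMIs. How much of the committed precursor-like Grm5 was free RNA was not tested. Oligodendrocyte-like nuclei had a ratio of -0.03 (-0.29 to 0.24) and glial progenitor-like nuclei one of 0.25 (0.06 to 0.44). In immature neuron-like nuclei 4 of the 5 genes with enough UMIs were 2-fold apart from control, Grm7 higher (2.59% of 3824 genes) and Grin2b, Grm3 and Grm5 lower (4.73%). Of 11 alternative settings, those of Grin2b and Grm5 stayed past 2-fold in 10 each and that of Grm3 in 7. Resolutions 0.3 and 1.2 are not among the 11, because fewer than 50 CBP-ablated nuclei carried the name of this class there. With classes by marker score the ratios were -0.46 for Grin2b, -0.85 for Grm5 and -0.29 for Grm3, and with free RNA subtracted that of Grm7 was 0.74 at 5% and -1.45 at 10%.

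The immature neuron-like class was made up of different nuclei in the libraries. At the finer resolution it split into a cluster led by Kcnj6, Disp3 and Unc5d, which held 57.4%, 6.19% and 90.1% of the class in the control, CBP-ablated and p300-ablated libraries, and one led by Gpr149, Draxin and Dll3. In the first, Grm5 stood at 2595 CPM (2292 UMIs), 2685 CPM (190 UMIs from only 18 nuclei) and 2219 CPM (4163 UMIs), a CBP-ablated ratio of 0.05 (-0.17 to 0.26). In the second it stood at 1180, 428 and 1986 CPM, a CBP-ablated ratio of -1.46 (-1.65 to -1.28). The Gpr149-led cluster also held NPC/OPC-like nuclei, in which Grm5 stood at 1461, 1229 and 1204 CPM. Within these clusters, the lower CBP-ablated level lay in the Gpr149-led immature neuron-like nuclei. The part of the cluster shares, and of where the class was cut, in the class-wide ratio was not tested. At the finer resolution the whole Gpr149-led cluster was named NPC/OPC by its markers, with 6 of 8 NPC/OPC and 3 of 5 immature neuron markers enriched. Most CBP-ablated nuclei of the class thus carry another name at that resolution. With a second random seed a Gpr149-led cluster was named immature neuron. Classed by marker score in place of clusters, the class-wide ratio was -0.85.

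Grm3, the group II receptor of astrocytes, had its highest level in astrocyte-like nuclei. There it stood at 280 CPM (264 to 297) in the control, and 29.1% of these nuclei had a Grm3 UMI after thinning (44.3% without it) against 1.56% of microglia-like nuclei. Neuron-like nuclei followed at 84.3, 72.6 and 45.8 CPM and oligodendrocyte-like nuclei at 68.2, 40.7 and 33.7 CPM, with ranges that overlap. Over whole libraries Grm3 fell from 95.3 CPM (90.7 to 100) to 21.7 CPM (19.2 to 24.4) in the CBP-ablated and 20.7 CPM (18.7 to 22.9) in the p300-ablated library, and the last 2 overlap. The log2 ratios were -2.13 (-2.32 to -1.95) and -2.20 (-2.37 to -2.04).

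The astrocyte-like class held 70.6% of the control's Grm3 UMIs. Outside it, the ratios were -0.76 and -0.83, short of 2-fold. Across the whole libraries the 8 astrocyte markers summed to 9642, 2161 and 3937 CPM, with none of them at 0 in any library. Grm3 was also lower in remaining classes, on small counts: in glial progenitor-like nuclei it stood at 44.9, 18.0 and 20.2 CPM, with a p300-ablated ratio of -1.15 (-1.77 to -0.55), the 1 of 6 genes with enough UMIs to be 2-fold lower there (0.383% of 5222 genes). With 10% of the average profile subtracted this ratio was -0.96, under 2-fold. In RGC/PSC-like nuclei it stood at 34.8, 7.03 and 6.55 CPM, from 56, 11 and 21 UMIs, or 36.5%, 32.4% and 31.6% of the level of their own library. Microglia-like nuclei stood at 24.6, 19.3 and 7.10 CPM, on 7, 2 and 1 UMIs. How much of the RGC/PSC-like Grm3 was free RNA was not tested. NPC/OPC-like nuclei, at 25.9, 24.0 and 20.7 CPM, did not differ beyond counting error.

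**Figure D2:**
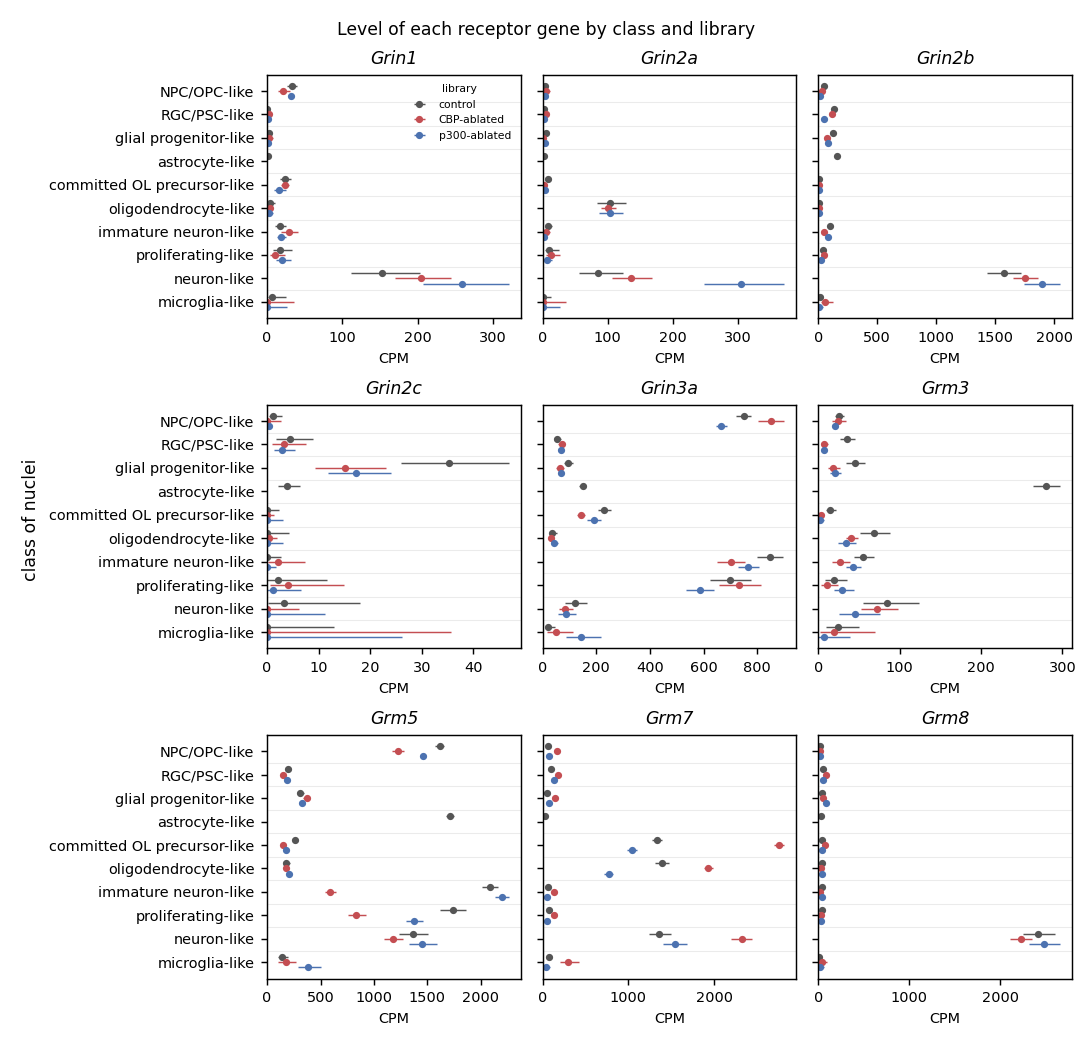
Level in CPM (horizontal, linear, a scale of its own in each panel) of each receptor gene in the 10 classes (vertical) of the control (grey), CBP-ablated (red) and p300-ablated (blue) libraries, with exact 95% Poisson intervals, for classes with at least 50 nuclei in a library. Grin1, Grin2b and Grm8 peak in neuron-like nuclei, Grin3a in NPC/OPC-like, immature neuron-like and proliferating-like nuclei, Grm3 in astrocyte-like nuclei, and Grm7 in neuron-like and both oligodendrocyte lineage classes.

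Grm7, a group III receptor known from presynaptic release sites, differed most between the CBP-ablated and control libraries. It had 4664 UMIs in the control, 16054 with CBP ablated and 3961 with p300 ablated, or 286 CPM (278 to 294), 1259 CPM (1240 to 1279) and 210 CPM (203 to 216). The log2 ratio was 2.14 (2.09 to 2.19) for the CBP-ablated and -0.45 (-0.51 to -0.38) for the p300-ablated library. It was 2.59 (2.54 to 2.64) between the ablated libraries.

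The oligodendrocyte lineage and the neurons held the gene. Committed precursor-like nuclei stood at 1334 CPM (1279 to 1391) in the control, 2758 CPM (2697 to 2819) with CBP ablated and 1038 CPM (981 to 1098) with p300 ablated. Oligodendrocyte-like nuclei stood at 1390, 1932 and 769 CPM, and neuron-like nuclei at 1362, 2322 and 1541 CPM. All remaining named classes lay at or under 299 CPM, and the 2 unnamed clusters together at 164, 384 and 124 CPM. In the CBP-ablated library 49.1% of the Grm7 UMIs came from committed precursor-like and 35.5% from oligodendrocyte-like nuclei, and in the control 47.6% and 25.3%. These classes held 22.4% and 23.1% of all UMIs of the CBP-ablated library and 10.2% and 5.21% of the control's. Outside the astrocyte and both oligodendrocyte lineage classes the CBP-ablated ratio was 1.61, and with equal class weights it was 0.84.

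**Figure D3:**
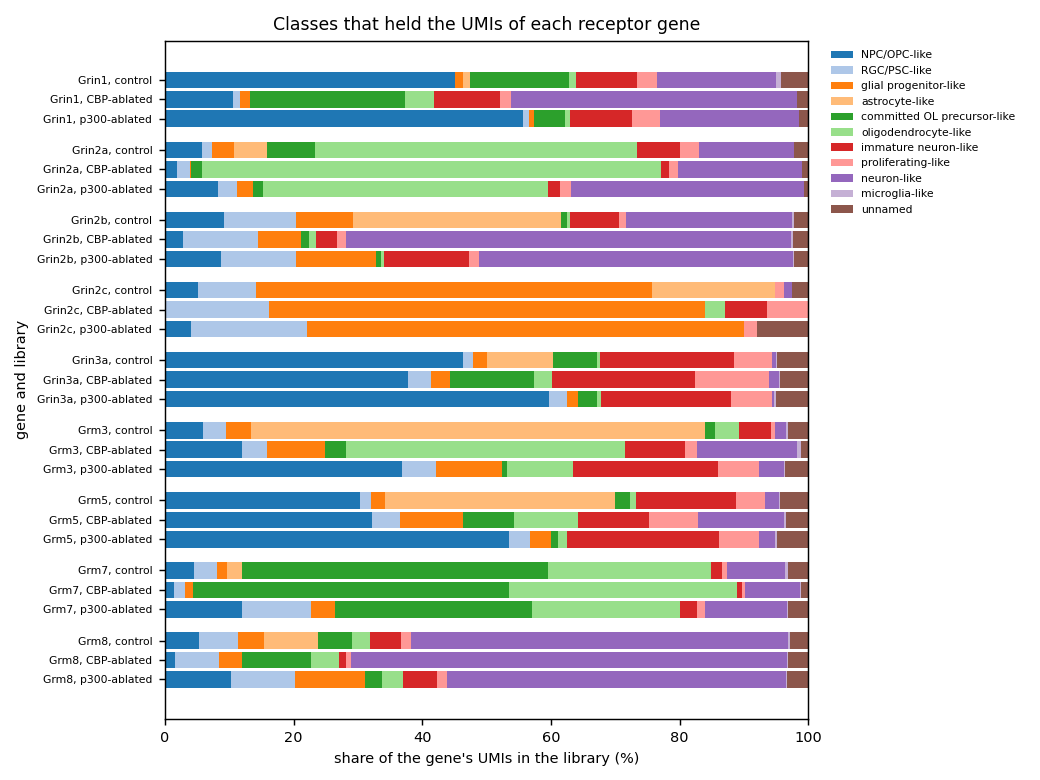
Share of each receptor gene's UMIs (horizontal, percent) that came from each class (colours), with 1 bar per gene and library (vertical). The astrocyte-like class held 70.6% of Grm3 and 35.8% of Grm5 UMIs in the control, and the oligodendrocyte lineage classes held most Grm7 UMIs of the CBP-ablated library.

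In each of the 7 classes that passed the count minimum, Grm7 was higher in the CBP-ablated than in the control library beyond counting error, at ratios of 0.48 to 1.46. Against the p300-ablated library it was higher in 8 of 8 classes, at 0.41 to 1.41. In NPC/OPC-like nuclei Grm7 stood at 60.6, 167 and 68.6 CPM, a CBP-ablated ratio of 1.46 (1.19 to 1.74), and it was the 1 of 6 genes with enough UMIs to be 2-fold higher there, and none was lower (0.439% of 5693 genes were higher, 0.984% lower and 1.42% either). The mix of finer clusters in this class differed between the libraries and was not held fixed. In committed precursor-like nuclei the ratio was 1.05 (0.98 to 1.12), the 1 of 5 genes with enough UMIs past 2-fold there (1.16% of 5452 genes were higher), and it went down to 0.90 over 13 alternative settings, under 2-fold in 4 of them. The ratio was 0.48 (0.38 to 0.57) in oligodendrocyte-like and 0.77 (0.61 to 0.93) in neuron-like nuclei. The p300-ablated ratio was -0.36 (-0.46 to -0.26) in committed precursor-like and -0.85 (-0.98 to -0.73) in oligodendrocyte-like nuclei.

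Microglia-like nuclei, which are not known for Grm7, held UMIs of it as well. They stood at 70.2, 299 and 35.5 CPM, on 20, 31 and 5 UMIs, or 24.5%, 23.7% and 16.9% of the level of their own library. NPC/OPC-like nuclei stood at 21.2%, 13.3% and 32.7% of that level. After thinning, 22.7% of CBP-ablated NPC/OPC-like nuclei and the same 22.7% (5 of 22) of CBP-ablated microglia-like nuclei had a Grm7 UMI. Without thinning these shares were 40.9% and 30.7%, at median depths of 3445 and 1010 UMIs. Whether the Grm7 of NPC/OPC-like nuclei was free RNA was not tested. Subtracting 10% of the library's average profile brought the NPC/OPC-like ratio from 1.46 to 0.36, and turned those of glial progenitor-like and immature neuron-like nuclei to -0.38 and -1.45. The committed precursor-like ratio stayed at 1.01 under the same subtraction.

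Counts per nucleus separated the holders of Grm7 from the rest. At least 10 Grm7 UMIs were found in 52 of 393 control committed precursor-like nuclei, or 13.2% (exact 95% interval 10.0% to 17.0%), in 171 of 616 CBP-ablated ones, or 27.8% (24.3% to 31.5%), and in 27 of 236 p300-ablated ones, or 11.4% (7.68% to 16.2%). In oligodendrocyte-like nuclei these shares were 16.8%, 31.9% and 11.4%, and in neuron-like nuclei 13.9%, 29.0% and 23.0%. The CBP-ablated library thus had the largest share of nuclei with at least 10 Grm7 UMIs in all 3 classes, although in neuron-like nuclei its interval (22.3% to 36.5%) overlapped that of the p300-ablated library. Only 5 nuclei reached 10 Grm7 UMIs in the other 7 named classes together. The threshold of 10 was chosen after the counts were seen, and median depths of committed precursor-like nuclei were 4178, 4559 and 4836 UMIs.

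The amount per nucleus with any Grm7 differed less. It was 23.6 UMIs in control, 21.6 in CBP-ablated and 15.9 in p300-ablated committed precursor-like nuclei, while 23.9%, 59.1% and 32.2% of these nuclei had a Grm7 UMI (18.8%, 42.8% and 21.2% after thinning). In the p300-ablated library 10 nuclei held 61.6% of the class's Grm7 UMIs. A nucleus with a single UMI of free RNA also counts as having Grm7. These shares and amounts therefore cannot tell more nuclei with Grm7 from more Grm7 per nucleus.

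The finer clusters located Grm7 at a step within the lineage. Committed precursor-like nuclei split into a cluster led by Arhgap24, Bmp4 and Kcnh1, with 71.9, 159 and 56.3 CPM of Grm7, and one led by Gm32531, Enpp6 and Ddc, with 2943, 4573 and 2243 CPM. Enpp6 marks newly forming oligodendrocytes. Oligodendrocyte-like nuclei split into a cluster led by 9630013A20Rik, Thsd4 and Tnni1, with 3042, 3453 and 3746 CPM, and one led by Prr5l, D7Ertd443e and 4930420G21Rik, with 446, 804 and 222 CPM. Levels in the Enpp6-led and 9630013A20Rik-led clusters thus lay above those of the other clusters of the lineage in every library. In the 9630013A20Rik-led cluster, with only 31 p300-ablated nuclei, the p300-ablated level was the highest in value but close to that of the CBP-ablated library. Over the oligodendrocyte-like class the p300-ablated level was the lowest.

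The libraries differed in the mix of these clusters and in the levels within them. The part of each in the class-wide ratios was not tested. The Enpp6-led cluster held 39.9% of control and 53.6% of CBP-ablated committed precursor-like nuclei, and within it the CBP-ablated ratio of Grm7 was 0.64 (0.57 to 0.71). Within the 9630013A20Rik-led cluster it was 0.18 (0.08 to 0.29), and within the Prr5l-led cluster 0.85 (0.65 to 1.05). The Arhgap24-led cluster had a ratio of 1.14 (0.73 to 1.57), past 2-fold, at low levels. These were near that of microglia-like nuclei in the control (70.2 CPM), under it with CBP ablated (299 CPM) and above it with p300 ablated (35.5 CPM). The microglia-like levels rest on 20, 31 and 5 UMIs. Neuron-like nuclei formed a single cluster at this resolution, with a ratio of 0.75 (0.59 to 0.91).

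**Figure D4:**
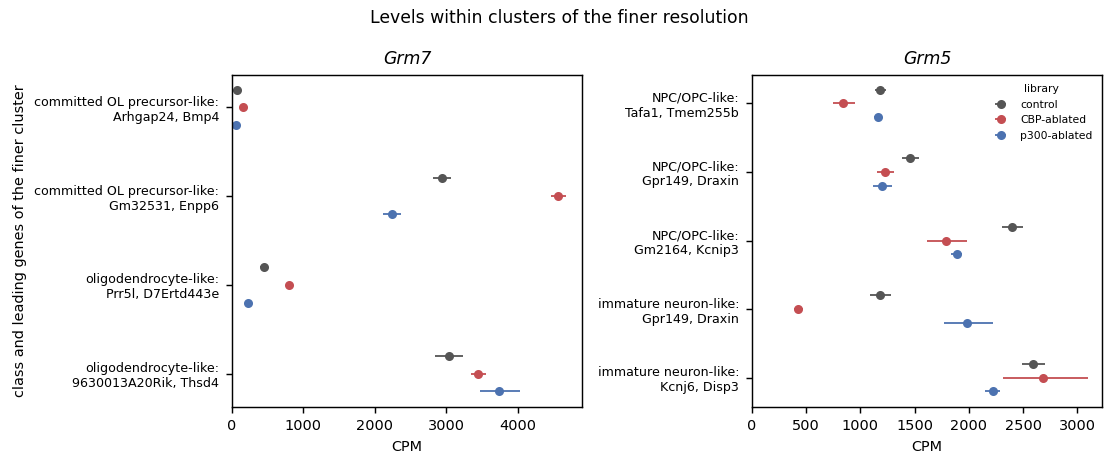
Level in CPM (horizontal, linear) of Grm7 in the finer clusters of the oligodendrocyte lineage classes (left) and of Grm5 in those of the NPC/OPC-like and immature neuron-like classes (right), named by class and leading genes, in the control (grey), CBP-ablated (red) and p300-ablated (blue) libraries, with exact 95% Poisson intervals. Grm7 reaches 2943, 4573 and 2243 CPM in the Enpp6-led cluster, and Grm5 of the CBP-ablated library is low in the Gpr149-led immature neuron-like cluster at 428 CPM.

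Grm8, also of group III, was mainly a neuronal gene. Neuron-like nuclei held 2420 CPM (2249 to 2600), 2226 CPM (2107 to 2349) and 2478 CPM (2310 to 2654) in the control, CBP-ablated and p300-ablated libraries. The log2 ratios there were -0.12 (-0.25 to 0.01) and 0.03 (-0.11 to 0.18), with both intervals holding 0. Every other named class lay at or under 85.7 CPM, and the unnamed clusters at 40.2, 131 and 49.8 CPM. Thinned shares of neuron-like nuclei with a Grm8 UMI were 70.3%, 67.7% and 78.3%, and of microglia-like nuclei 3.12%, 4.55% and 0 of 30.

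Over whole libraries Grm8 stood at 78.1, 152 and 81.8 CPM. The CBP-ablated ratio was 0.97 (0.86 to 1.07), just under 2-fold, and it went past 2-fold, to 1.14, outside the astrocyte and oligodendrocyte lineage classes. Neuron-like nuclei were 2.07%, 5.60% and 1.87% of the 3 libraries and held 58.6%, 67.8% and 52.6% of the Grm8 UMIs. With equal class weights the ratio was -0.07. Glial progenitor-like nuclei had 37.6, 50.4 and 85.4 CPM of Grm8, a p300-ablated ratio of 1.18 (0.73 to 1.67) on 51 and 169 UMIs, one of 6 genes with enough UMIs there (1.24% of 5222 genes were 2-fold higher).

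**Figure D5:**
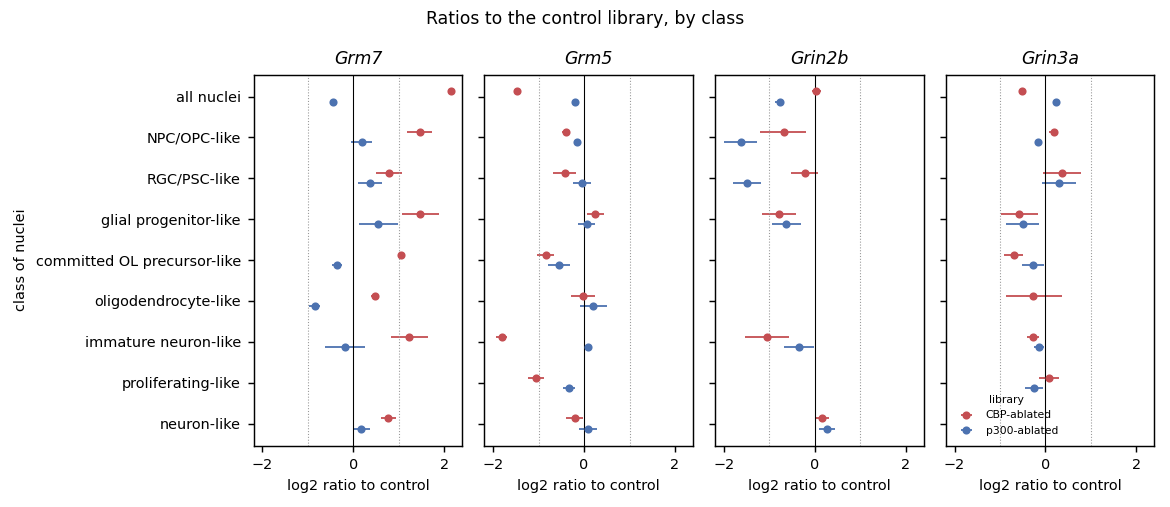
Log2 ratio of CPM to the control library (horizontal) of Grm7, Grm5, Grin2b and Grin3a in all nuclei and in the classes (vertical), for the CBP-ablated (red) and p300-ablated (blue) libraries, with 95% intervals of counting error, for classes with at least 100 UMIs of the gene in the pair of libraries. Dotted lines mark 2-fold. Grm7 of the CBP-ablated library lies right of 0 in each class, and Grin2b of the p300-ablated library lies past 2-fold to the left in NPC/OPC-like and RGC/PSC-like nuclei and right of 0 in neuron-like nuclei.

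Set against each other within classes, the ablated libraries differed past 2-fold in Grm7 in 5 classes, 3 of which lost this difference once free RNA was subtracted. With 10% of the average profile subtracted, the Grm7 ratio turned to -0.21 in NPC/OPC-like, -1.47 in immature neuron-like and -3.76 in proliferating-like nuclei, while the committed precursor-like and oligodendrocyte-like ratios stayed past 2-fold in all 13 alternative settings. In NPC/OPC-like nuclei it was 1.28 higher on the log2 scale (1.05 to 1.52), the only gene of 7 past 2-fold (0.771% of 7267 genes were higher, 1.67% lower and 2.44% either). It was the only one of 6 in oligodendrocyte-like nuclei, at 1.33 (1.23 to 1.43, where 1.18% of genes were higher), and of 3 in proliferating-like nuclei (1.21, where 0.527% were higher). None of the settings held the finer clusters of the oligodendrocyte-like class fixed. In the 9630013A20Rik-led cluster the Grm7 levels with CBP and with p300 ablated lay close together, and their order is not settled. In the Prr5l-led cluster Grm7 was higher with CBP than with p300 ablated. The first cluster held 218 CBP-ablated and 31 p300-ablated nuclei, and the second 270 and 162. Committed precursor-like nuclei had Grm7 at 1.41 and Grm8 at 1.01 (0.53 to 1.52), 2 of 4 genes, where 1.33% were higher. This Grm8 ratio was past 2-fold in 6 of 13 alternative settings and went down to 0.89. Immature neuron-like nuclei had Grm7 at 1.41 and Grm5 at -1.89, 2 of 6 genes, where 3.9% were higher and 7.09% lower. Grin2b was 1.28 (0.95 to 1.60) in RGC/PSC-like nuclei, 1 of 5 genes, where 0.473% were higher, and Grin2a -1.18 (-1.62 to -0.74) in neuron-like nuclei, 1 of 6, where 1.81% were lower. The Grin2a ratio was under 2-fold in 2 of 13 settings, at -0.84 without called doublets and -0.67 with classes by marker score. Against control, Grm7 was also the only gene of 5 past 2-fold in CBP-ablated glial progenitor-like nuclei, at 1.46 (1.06 to 1.87), where 0.964% were higher, and its level there, 144 CPM, lay under that of microglia-like nuclei.

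Across classes, the genes fell into different patterns. Over 28 units, each a class of 1 library with at least 50 nuclei, the log2 levels of Grin2b and Grm8 had a Pearson r of 0.78 and those of Grin3a and Grm5 one of 0.73. The lowest values were those of Grm7 with Grin2c, at -0.39, and with Grin3a, also at -0.39. These correlations are descriptions, since units of the same library share depth and free RNA. By the same measure over 8520 genes, the genes most like Grm7 were Synpr (r = 0.91), 9530059O14Rik (0.90) and Lingo2 (0.89). Those most like Grin3a were Brinp3 (0.95), Ppp1r14c (0.95) and Ntrk3 (0.94), those most like Grm8 A830018L16Rik (0.96), Cntnap2 (0.92) and Mgat4c (0.92), and those most like Grin2b Meis2 (0.93) and Srrm4 (0.89). Grm5 was most like Kcnma1 (0.92), Mir124-2hg (0.89) and Klf12 (0.88). Grin1 was most like Stxbp5l and Gm15398 (0.93 and 0.92), Grin2a like Auts2, Dync1i1 and Enox1 (0.91, 0.91 and 0.89), Grin2c like Atl2, Gm9750 and Ift80 (0.89, 0.87 and 0.83). Grm3 had the weakest likeness, with Ptn at 0.74, Kcnn2 at 0.68 and Gm50321 at 0.67.

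Further genes of the families were scarce. Grm4 stood at 4.29, 3.69 and 3.87 CPM, Grin2d at 2.88, 2.90 and 2.60 CPM and Grin3b at 0.736, 0.471 and 1.43 CPM. Grm2 had 3, 3 and 1 UMIs and Grm6 had 1, 0 and 0, at or under the floor of 3 UMIs set for detection. Of the metabotropic receptor groups, group II was thus read from Grm3 and group III from Grm7 and Grm8 nearly alone.

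Genes that act with the receptors mostly stayed within 2-fold. Of 18 genes of postsynaptic scaffolds and kinases, 18 passed the count minimum and 1 was 2-fold lower in the CBP-ablated library, beside 3.99% of all genes, with a median log2 ratio of -0.15 against 0.06 over all genes. For the p300-ablated library the median ratio to control was 0.21, against -0.03 over all genes, with 14 of 18 above 0. Between the ablated libraries it was -0.48, against 0.10 over all genes, with 3 of 18 above 0. The share of all genes above 0 was not counted. In NPC/OPC-like nuclei these medians were -0.15, 0.11 and -0.24, in the same order, against 0.08, 0.02 and 0.08 over all genes. The lower gene was Camk2b, a calcium-dependent kinase, at 32.6 CPM in the control and 14.6 CPM in the CBP-ablated library (-1.16, interval -1.41 to -0.91). Of 5 genes of glycine and D-serine supply 3 passed, with a median of -0.84. Slc6a9, the glial glycine transporter, was lower in both ablated libraries as a whole, at 28.9, 10.7 and 11.8 CPM (-1.44 and -1.29). It was the 1 of 3 genes 2-fold lower in each, beside 3.99% and 2.12% of all genes. In NPC/OPC-like nuclei it stood at 12.5 CPM in the control and 10.9 CPM with CBP ablated, on 44 and 15 UMIs, under the count minimum. None of 9 genes of G protein signalling was 2-fold apart from control in either library, at medians of 0.08 and 0.13. Of 8 binding partners 6 passed and none was 2-fold apart from control. With so few genes, both counts are near the shares of all genes, 6.88% and 2.82%. Elfn1, a synaptic adhesion protein that binds group III receptors, was lower in the CBP-ablated than in the p300-ablated library (29.8 against 67.5 CPM, -1.18), as was Camk2b (14.6 against 42.6 CPM, -1.55). In NPC/OPC-like nuclei none of the 4 groups had a gene 2-fold apart from control. Of all genes there, 1.42% were with CBP ablated and 0.567% with p300 ablated. Shank1 and Camk2b were lower there in the CBP-ablated than in the p300-ablated library (-1.33 and -1.19), as were 1.67% of all genes.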

How the data were processed

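Single-nucleus RNA-seq was analysed in 3 libraries, 1 per condition. The deposited files hold UMI counts per gene and nucleus, which the authors made with Cell Ranger 3.1 on build GRCm38, counting exonic and intronic reads over annotation version 94. The submitters' processing notes also name FastQC 0.11.9, Seurat 2.3.4 and mm10. All deposited nuclei were used, with 12748336 to 18876682 UMIs per library.

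Here, libraries were merged and clustered with Seurat 5.3.0 in R 4.3.3 (log-normalization to 10000, 1611 variable genes without Grin and Grm genes, 20 principal components, Louvain resolution 0.6). A cluster was named when a gene list gave at least 3 markers and at least 60% of those enriched, a marker being enriched when found in at least 10% of its nuclei at 2 times the level elsewhere. A difference from the study's cell types may come from these rebuilt names. Finer clusters used resolution 1.2. UMIs were summed per class and library and divided by the UMIs of the same nuclei (CPM). Sums have exact Poisson intervals and ratios conditional binomial (Clopper-Pearson) intervals, computed with scipy 1.17.1. A ratio needed at least 100 UMIs in both libraries together, and the floor was 3 UMIs. The ratio of a gene was called when past 2-fold, with no test, since there was 1 library per condition. For shares of nuclei, each nucleus was thinned to 1500 UMIs, which left out 248, 95 and 135 shallower nuclei of the control, CBP-ablated and p300-ablated libraries. Doublets called by Scrublet (191, 73 and 173 nuclei) were kept, and left out as an alternative. Other alternatives were further clusterings, classes by marker score, TMM factors (edgeR 4.0.16), centring, count minimums, class weights and subtraction of free RNA. The steps were tested on simulated data.

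All 9 receptor genes are named, with, for each, the 3 genes of highest Pearson r over class levels among genes with at least 500 UMIs, and pathway genes past 2-fold. Some genes that this rule names are not reported here. The genes and lists were chosen with earlier results of these data known.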

Additional observations from a re-analysis of the deposited data

Results flagged for a closer look

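These differences were picked out because 2 groups lay on opposite sides of the control in the same comparison, and the differences themselves were not tested. Both ablated libraries were compared with the same control library. Over all nuclei, the log2 ratio of Grm7 to control was 2.14 with CBP ablated and -0.45 with p300 ablated, and in committed oligodendrocyte precursor-like nuclei it was 1.05 and -0.36. Grm5 of immature neuron-like nuclei had a ratio of -1.82 with CBP ablated and 0.076 with p300 ablated.

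Between classes of the same pair of libraries, the CBP-ablated ratio of Grin2b was -1.05 in immature neuron-like and 0.16 in neuron-like nuclei. That of Grm5 was -1.82 in immature neuron-like and 0.25 in glial progenitor-like nuclei. The p300-ablated ratio of Grin2b was -1.63 in NPC/OPC-like and 0.27 in neuron-like nuclei.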

How the results depend on the processing

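No paired analysis was possible because each condition had 1 library, and for the same reason no replicate could be left out. Of the 30 ratios past 2-fold, 7 stayed past it in every alternative run. With equal class weights, the number of receptor genes 2-fold apart fell from 4 to 0 for the CBP-ablated against the control library. It fell from 3 to 1 for the CBP-ablated against the p300-ablated library, where Grin2a turned from 1.15 to -0.69. Equal weights covered only named classes with at least 50 nuclei in all 3 libraries. The astrocyte-like class and the unnamed nuclei were thus removed, not reweighted. Outside the astrocyte-like class, the count for the p300-ablated against the control library fell from 1 to 0. Thinning to 1500 UMIs gave 5 for the CBP-ablated against the p300-ablated library. In NPC/OPC-like nuclei each of the 3 counts was 1. Against control, the CBP-ablated count was 2 with thinning and with no filter on low counts and 0 with 10% free RNA subtracted, and the p300-ablated count was 2 with no filter. Between the ablated libraries it was 2 at resolution 1.2, with a second random seed, with Grin and Grm genes in the clustering and with 10% subtracted, and 0 with 5% subtracted. Subtracting 10% turned Grm7 ratios in low-level classes: to -0.38 (glial progenitor-like) and -1.45 (immature neuron-like) against control, and to -0.21 (NPC/OPC-like), -1.47 (immature neuron-like) and -3.76 (proliferating-like) against the p300-ablated library. The causes were not tested. The alternative without the astrocyte and oligodendrocyte lineage classes was chosen after seeing the data.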

Other observations

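Grm7 UMIs of single nuclei reached 104 in the control, 128 with CBP ablated and 152 with p300 ablated, each in a committed oligodendrocyte precursor-like nucleus.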
